A study of Homo sapiens with 26 samples.

Results

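The Wnt ligands, receptors and antagonists examined here were the genes whose symbols in both deposited count tables belong to the WNT, FZD, SFRP, DKK, RSPO, LGR, LRP5/LRP6, ROR, KREMEN and APCDD1 families, together with NOTUM, WIF1, AXIN2, LEF1 and TCF7. This rule uses names only and took 57 of 26485 genes. RNA sequencing had been performed on KELLY, an established human neuroblastoma cell line with amplified MYCN, which carried a doxycycline-inducible lentiviral vector. The vector was either empty (EV, named F1HUTG in the labels) or held a short hairpin RNA against the co-repressor RUNX1T1, named sh4 or shAMB. Cells of each of the 3 lines received doxycycline or DMSO, its solvent, for 72 h, with 3 replicates per group and 18 libraries in all. KELLY tumors grown in mice gave 8 more libraries, of which 4 were labelled control and received control food and 4 were labelled RUNX1T1 KO and received food with doxycycline. The methods of the study describe subcutaneous growth of hairpin-bearing cells in NOD SCID gamma mice, which lack lymphocytes. For the tumors the study names the hairpin that was built on an Ambion siRNA sequence, and it lists the same hairpin for culture. The tumors thus share their hairpin with a culture line. The name shAMB resembles Ambion, but the labels do not tie the tumors to sh4 or shAMB. How reads from mouse cells were handled is not given in the sources used here. All lines and tumors derive from the same parental line, and nothing in the labels says that replicates were separate cultures, so that p-values in culture may measure technical spread.

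Wnt proteins are secreted, lipid-modified signals. They bind Frizzled receptors together with the co-receptors LRP5 and LRP6, and thereby spare beta-catenin from the destruction complex, so that it can act with TCF and LEF factors in the nucleus. R-spondins bind LGR receptors and keep Frizzleds at the cell surface, DKK and KREMEN proteins act against LRP5 and LRP6, SFRP and WIF proteins bind the ligands, and NOTUM removes their lipid. ROR receptors and ligands such as WNT5A serve branches that do not need beta-catenin. In the sympathetic nervous system, Wnt signals are known from neural crest induction and neuroblast growth.

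RUNX1T1 itself was measured in every library, since it checks the labels. In the sh4 line RUNX1T1 was at 34.7, 33.3 and 35 CPM (counts as a share of the library total, with TMM scaling) with DMSO and at 31.2, 33.9 and 30.1 CPM with doxycycline. The shAMB line had 40.8, 42.0 and 39.9 CPM with DMSO and 41.3, 44.1 and 42.2 CPM with doxycycline. The EV line had 44.1, 39.3 and 42.4 CPM with DMSO and 36.5, 37.8 and 38.6 CPM with doxycycline. RUNX1T1 RNA was thus not called lower in either hairpin line, with log2 fold changes of -0.11 ± 0.06 (95% interval -0.23 to 0.01) and 0.06 ± 0.06 (edgeR, adjusted p = 0.118 and 0.378). Without doxycycline replicate 2 the sh4 difference of RUNX1T1 was called (-0.16, adjusted p = 0.0434). Control xenografts held 34.3, 43.1, 30 and 34.4 CPM of RUNX1T1, and the libraries labelled KO 24.3, 35.2, 27.3 and 33.9 CPM. That difference was not called either (log2 fold change -0.23, adjusted p = 0.229), so the directions below are those of libraries labelled by treatment and do not rest on a measured loss of RUNX1T1 RNA. Protein was not analysed here.

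Total counts ranged from 35115915 to 54736733 in culture and from 47346063 to 62378060 in xenografts. A filter on low counts left 14905 genes to test in culture and 15960 in xenografts. Summed sympathetic neuroblastoma markers lay between 824 and 1790 CPM in all libraries. Summed leukocyte markers stayed low but were higher with doxycycline in the shAMB line, at 1.5 to 2.22 against 0.616 to 0.776 CPM, and in xenografts labelled KO, at 1.79 to 2.67 against 1.15 to 1.58 CPM. Summed endothelial markers were lower with doxycycline in shAMB, at 2.44 to 2.93 against 3.56 to 4.33 CPM. Of the 3 endothelial markers tested there, 1 was called higher and 1 lower. Of the 5 leukocyte markers, PTPRC reached at most 10 counts in any library and ITGAM at most 3. Only 1 of the 5 passed the filter in culture. The part of these markers in the results was not tested. In bulk RNA, fewer cells of a kind and less RNA per cell cannot be told apart.

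Of the 57 members, 36 passed the filter in culture and 36 in xenografts, with 33 in common. The filter asked for counts in as many libraries as the smallest group holds, in whichever group they lay. A member low in controls could thus pass through the group where it was high. RSPO2, RSPO4 and WNT7B passed in culture only, and RSPO3, SFRP2 and WNT4 in xenografts only. The other 18 passed in neither table, and among them were the ligands WNT1, WNT2, WNT6, WNT7A and WNT8A and the antagonists WIF1, SFRP4 and DKK4. WNT3A had 0 counts in all 26 libraries. Between 16 and 21 members had at most 3 counts in every library of a culture group, against 10 and 11 in the xenograft groups.

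Levels between genes were compared per length. In the EV line with DMSO, DKK1 was the highest member at 41.5 ± 2.5 CPM per kb (SD, n = 3), followed by LRP6 at 17.6 ± 1.7 and SFRP1 at 17.2 ± 0.35, which lay within their spread of each other. LGR4 at 7.29 ± 0.50, LGR5 at 7.16 ± 0.43 and TCF7 at 6.78 ± 0.44 CPM per kb came next and did not differ beyond their spread. WNT3 was the highest ligand, at 2.69 ± 0.089 CPM per kb and rank 12 among the members. In control xenografts LRP6 led at 31.6 ± 2.7 CPM per kb, with SFRP1 at 13.4 ± 0.45 next. FZD5 at 8.68 ± 3.6 CPM per kb came at rank 4 there, with the widest spread of these. The tables were normalized separately, so culture and xenograft levels were not tested against each other.

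**Figure D1:**
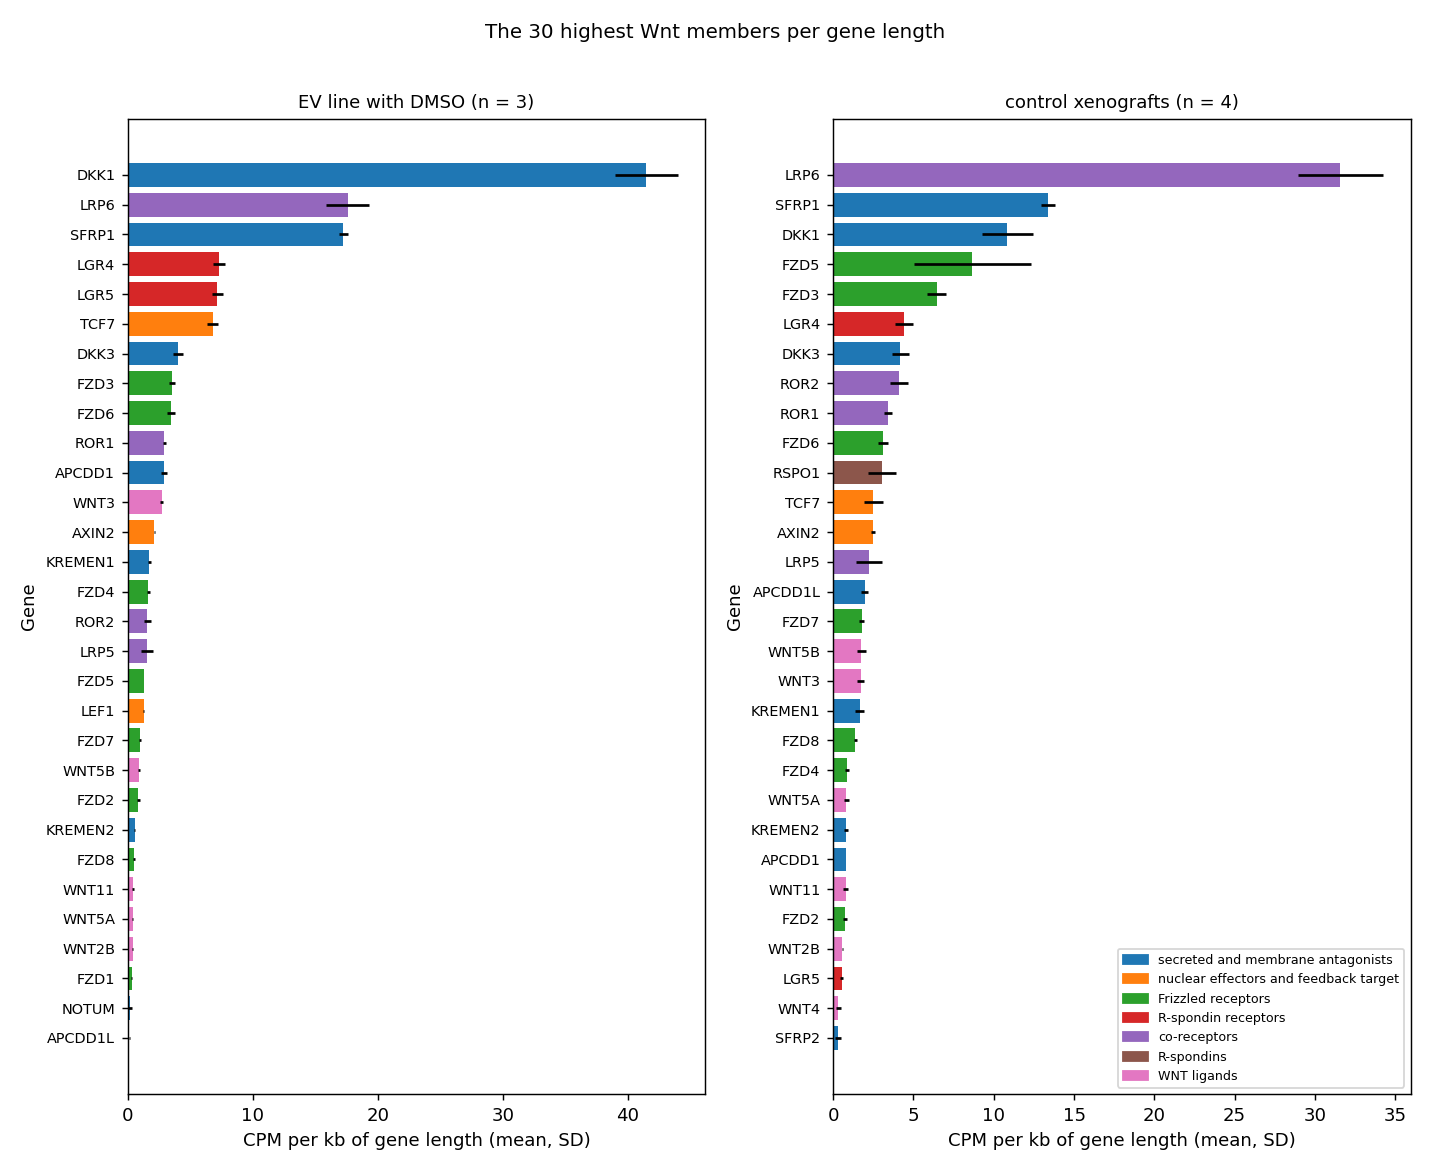
Levels of the 30 highest members per gene length, as mean CPM per kb with SD over libraries, in the EV line with DMSO (left, n = 3) and in control xenografts (right, n = 4), coloured by role. DKK1, LRP6 and SFRP1 are the highest in both panels, with DKK1 at 41.5 CPM per kb in culture and LRP6 at 31.6 CPM per kb in xenografts.

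Promoter sequences of 37 members were found in RefSeq (GRCh38.p14), with 43 annotated starts. The other 20 members, among them AXIN2, LGR5, NOTUM, KREMEN1 and SFRP1, had no entry and were not searched. Members had a median GC content of 69.0%, against 58.7% over all 35116 promoters of the same length. The letters CTTTGA, the core that TCF and LEF factors recognise, were found on either strand in 12.9% of all promoters and among members only in that of DKK1. The E-box CACGTG, which MYC and MAX bind and which reads alike on both strands, was in 7.26% of all promoters and in that of RSPO4. The E-box CATCTG, a form that HAND2 binds, was on either strand in 14.7% of all promoters and in those of LGR6, WNT5A and WNT5B. A match is a description of the letters, not of binding. The 300-base promoters of DKK1, WNT3, WNT10A and FZD5 are shown because results described next turn on these genes, with capitals for matches to any of these letters. DKK1 (chr10:52314031-52314330, plus strand) has 2 matches, and WNT3 (chr17:46818643-46818942, minus strand), WNT10A (chr2:218880602-218880901, plus strand) and FZD5 (chr2:207769857-207770156, minus strand) have none.
DKK1: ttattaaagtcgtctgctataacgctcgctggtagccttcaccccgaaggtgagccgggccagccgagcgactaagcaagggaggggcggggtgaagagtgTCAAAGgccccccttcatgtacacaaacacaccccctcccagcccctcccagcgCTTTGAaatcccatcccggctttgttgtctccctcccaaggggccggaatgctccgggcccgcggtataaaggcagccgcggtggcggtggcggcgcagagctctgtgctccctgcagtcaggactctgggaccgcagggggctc
WNT3: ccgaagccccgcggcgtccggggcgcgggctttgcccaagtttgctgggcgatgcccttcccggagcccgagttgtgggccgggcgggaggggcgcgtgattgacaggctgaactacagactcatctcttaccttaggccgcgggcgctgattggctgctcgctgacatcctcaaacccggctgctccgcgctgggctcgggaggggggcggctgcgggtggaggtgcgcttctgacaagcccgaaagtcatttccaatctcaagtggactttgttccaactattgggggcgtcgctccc
WNT10A: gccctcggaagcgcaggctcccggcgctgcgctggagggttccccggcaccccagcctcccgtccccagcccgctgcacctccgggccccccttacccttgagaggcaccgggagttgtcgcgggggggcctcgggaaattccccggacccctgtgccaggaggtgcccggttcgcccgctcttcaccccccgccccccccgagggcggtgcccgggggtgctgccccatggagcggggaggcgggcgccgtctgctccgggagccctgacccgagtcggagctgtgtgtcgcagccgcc
FZD5: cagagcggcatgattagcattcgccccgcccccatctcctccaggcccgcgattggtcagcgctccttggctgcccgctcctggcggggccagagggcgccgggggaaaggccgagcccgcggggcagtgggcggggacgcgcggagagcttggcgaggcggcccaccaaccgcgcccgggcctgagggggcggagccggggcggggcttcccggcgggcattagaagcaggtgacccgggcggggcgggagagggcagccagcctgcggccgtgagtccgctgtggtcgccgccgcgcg

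Doxycycline alone, in the EV line, changed no member (edgeR, adjusted p under 0.05), and 0.0939% of all genes. At an unadjusted p under 0.05, 2 members differed, and DESeq2 called 0. In the sh4 line 16 of 36 members changed, 14 higher and 2 lower, against 40.9% of all genes in either direction, 22.9% higher and 18% lower. In the shAMB line 29 of 36 changed, 16 higher and 13 lower, where 66% of all genes changed, 37.6% higher and 28.4% lower. Xenografts labelled KO differed from control in 20 of 36 members, 14 higher and 6 lower, against 41.1% of all genes, 21.2% higher and 19.9% lower. The share of members called was near the background in sh4 and above it in shAMB and in xenografts. The median absolute log2 fold change of the members was 0.36 in sh4, 0.75 in shAMB and 0.77 in xenografts, beside 0.26, 0.42 and 0.35 over all genes.

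**Figure D2:**
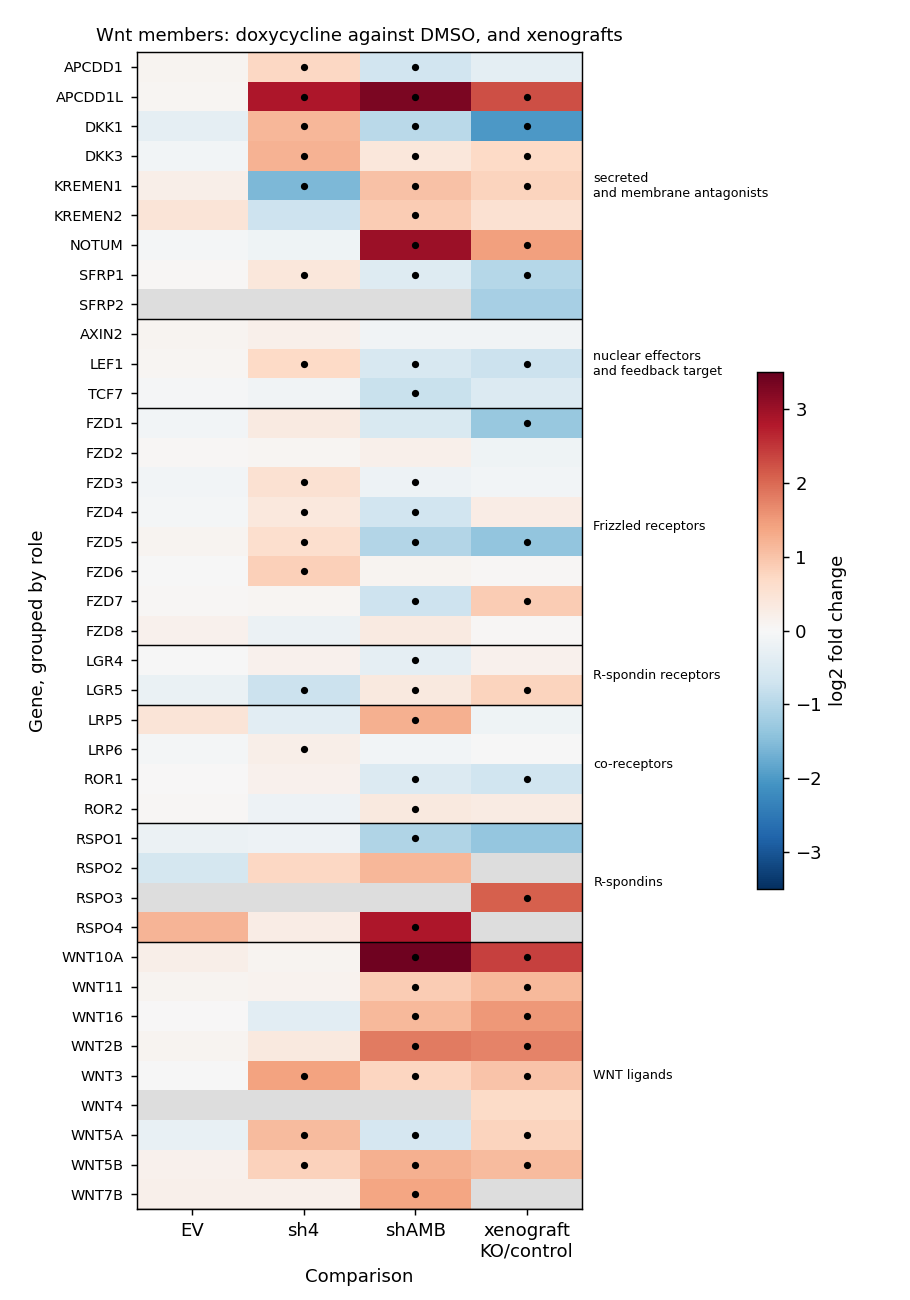
Log2 fold change of each tested member (rows, by role) for doxycycline against DMSO in the EV, sh4 and shAMB lines and for xenografts labelled KO against control (columns). Black dots mark an adjusted p under 0.05 and grey cells genes not tested. The EV column holds no dot, and dots number 16, 29 and 20 in the others.

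Among WNT ligands, 8 were tested in culture. In the shAMB line 7 rose and 1, WNT5A, fell, whereas in the sh4 line 3 rose and none fell. In xenografts labelled KO 7 of 8 rose and none fell. The shares of all genes called higher were 37.6%, 22.9% and 21.2%. WNT10A and WNT16 were low in control libraries and may have entered the tests through groups where they were high. The ligand counts are therefore descriptive. Set against the EV line, the shAMB effect was called for 4 ligands, all higher (WNT10A, WNT2B, WNT3 and WNT5B), and not for WNT5A (-0.31, adjusted p = 0.244), WNT11 (0.79), WNT16 (1.12) or WNT7B (1.2). WNT3, which signals through beta-catenin, was at 10.6, 8.12 and 9.99 CPM in the sh4 line with DMSO and at 25.8, 24.9 and 25.1 CPM with doxycycline. In the shAMB line WNT3 was at 10.5, 9.10 and 9.07 CPM with DMSO and at 16.2, 16.4 and 16.2 CPM with doxycycline. Every treated library of both lines lay above its controls. The log2 fold changes of WNT3 were 1.40 ± 0.10 and 0.76 ± 0.10 (SE, adjusted p = 1.72e-08 and 5.50e-06), and the rise was larger in sh4 by 0.64 (adjusted p = 0.000999). WNT3 in xenografts stood at 6.53, 5.98, 5.0 and 5.40 CPM in controls and at 10.8, 12.1, 11 and 12.1 CPM in libraries labelled KO, with no overlap (log2 fold change 1.00, adjusted p = 0.000234).

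WNT5B, of the WNT5 branch, also rose in all of these comparisons. With DMSO and with doxycycline, WNT5B was at 2.40 to 2.55 and 4.04 to 4.93 CPM in sh4, and at 1.64 to 2.66 and 4.57 to 4.97 CPM in shAMB. The log2 fold changes were 0.81, 1.26 and, in xenografts, 1.10 (adjusted p = 0.000404, 3.29e-06 and 0.000331). Its paralog WNT5A moved in opposite directions in the hairpin lines. WNT5A was at 2.08, 2.18 and 2.01 CPM with DMSO and at 5.12, 4.73 and 3.63 CPM with doxycycline in sh4, but at 2.61, 2.26 and 2.57 and then 1.90, 1.5 and 1.59 CPM in shAMB. The groups did not overlap in either line, and the effects differed by 1.68 on the log2 scale (adjusted p = 4.53e-06). The rise of WNT5A in xenografts (log2 fold change 0.79, adjusted p = 0.0242) had overlapping groups and lost its call when any one of 5 libraries was left out (control replicate 1, 3 or 4, KO replicate 2 or 3, log2 fold change 0.54 to 0.79, adjusted p = 0.0552 to 0.0842).

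WNT10A, WNT2B, WNT16, WNT11 and WNT7B rose in shAMB and were not called in sh4. WNT10A had 3, 4 and 2 counts with DMSO and 38, 51 and 35 counts with doxycycline in shAMB, or 0.0739, 0.104 and 0.0535 against 0.851, 0.892 and 0.808 CPM. Its log2 fold change was 3.41 ± 0.46 in shAMB (adjusted p = 9.34e-06) and 0.11 in sh4 (95% interval -0.95 to 1.16), a difference of -3.31 (adjusted p = 0.001). WNT10A was also higher in xenografts labelled KO, at 0.872, 1.60, 1.2 and 0.634 CPM against 0.149, 0.181, 0.179 and 0.301 CPM. Although clear of its controls, it remained a low-level transcript throughout.

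WNT2B was at 1.01, 0.702 and 0.990 CPM with DMSO and at 3.83, 2.66 and 3.12 CPM with doxycycline in shAMB (log2 fold change 1.82, adjusted p = 6.12e-07). In xenografts WNT2B was at 1.52 to 1.81 CPM in controls and at 4.36 to 6.77 CPM in libraries labelled KO (log2 fold change 1.72, adjusted p = 6.51e-05). Of the exon bases of WNT2B, 21.5% face exons of a gene on the opposite strand, and whether counting used the strand is not given in the sources used here. WNT16 was at 0.208 to 0.222 CPM with DMSO and 0.402 to 0.560 CPM with doxycycline in shAMB, and DESeq2 did not call it at a log2 fold change of 1.06 (adjusted p = 0.0585), against 1.12 with edgeR. In xenografts WNT16 was at 0.171 to 0.569 CPM in controls and 1.01 to 1.21 CPM in libraries labelled KO. WNT11, a ligand of the polarity branch, rose in shAMB and in xenografts (log2 fold change 0.89 and 1.14), and WNT7B in shAMB (1.37). The calls of WNT11 and WNT7B in shAMB were lost once trends with GC content and gene length were removed (log2 fold change 0.37 and 0.52, adjusted p = 0.0605 and 0.208). That of WNT7B was also lost without DMSO replicate 2 or doxycycline replicate 3 (log2 fold change 1.2 and 1.18, adjusted p = 0.0542 and 0.0514).

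Several ligand genes lie next to each other. The annotated span of WNT6 ends just inside the start of that of WNT10A on chromosome 2, without shared exon bases. WNT3 and WNT9B lie 14.5 kb apart on chromosome 17. WNT6 and WNT9B did not pass the filter in either table, so the neighbours of these called ligands could not be compared.

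The R-spondins were scarce in culture. RSPO4 had 4, 3 and 1 counts with DMSO and 29, 21 and 22 counts with doxycycline in shAMB (log2 fold change 2.82 ± 0.51, adjusted p = 0.000167), and was not called in sh4. RSPO4 passed the filter mainly through these doxycycline libraries, so its adjusted p is descriptive only. Set against the EV line, the shAMB effect was called for 0 of the 3 R-spondins tested. RSPO1 was below 0.4 CPM in all culture libraries but at 10.4, 6.89, 8.79 and 5.22 CPM in control xenografts. In the libraries labelled KO, RSPO1 was at 8.25, 0.879, 0.934 and 2.11 CPM, so that KO replicate 1 lay among the controls and the difference was not called (log2 fold change -1.36, adjusted p = 0.102). The fall of RSPO1 in shAMB (log2 fold change -1.05, adjusted p = 0.0378), at 4 to 12 counts a library, was lost when DMSO replicate 1 or 2 or doxycycline replicate 1, 2 or 3 was left out (-1.16 to -0.83, adjusted p = 0.055 to 0.15). RSPO3 was at 2 to 9 counts in control xenografts and at 17 to 30 counts in libraries labelled KO (log2 fold change 2.10 ± 0.50, adjusted p = 0.00644). RSPO3 likewise passed the filter mainly through the libraries labelled KO, so its adjusted p is descriptive only.

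LGR5, an R-spondin receptor known as a stem cell marker, moved in opposite directions. LGR5 was at 47.6, 47.5 and 49.9 CPM with DMSO and at 30.3, 29.6 and 26.6 CPM with doxycycline in sh4, and at 38.4, 40.9 and 38.3 and then 51.8, 46.7 and 50.2 CPM in shAMB. These log2 fold changes of -0.75 and 0.34 differed by -1.08 (adjusted p = 5.24e-08), and no treated library overlapped its controls. In the EV line LGR5 was at 30.2 to 33.9 CPM with DMSO and at 26.8 to 28.3 CPM with doxycycline, a difference of -0.24 that was not called (adjusted p = 0.428). LGR5 was thus higher in sh4 than in EV with DMSO, and at similar levels in both lines with doxycycline. Xenografts held far less LGR5, at 2.15 to 3.14 CPM in controls and 2.70 to 5.36 CPM in libraries labelled KO, with overlapping groups. The xenograft call (log2 fold change 0.77, adjusted p = 0.0223) was lost when control replicate 2, 3 or 4 or KO replicate 2 or 4 was left out (0.63 to 0.74, adjusted p = 0.0554 to 0.067), and with the replicate number as a block (0.75, adjusted p = 0.0767). LGR4 fell in shAMB (log2 fold change -0.32, adjusted p = 0.000718) but not on the TPM scale, where the change was -0.14 (adjusted p = 0.112).

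Of 8 Frizzled receptors tested, 4 rose and none fell in sh4, and none rose and 4 fell in shAMB, while the others were not called. The 50% called in each line stood beside 40.9% of all genes in sh4 and 66% in shAMB. Of all genes, 22.9% were called higher in sh4 and 28.4% lower in shAMB. FZD3, FZD4 and FZD5 were called in both lines, in opposite directions. FZD5 was at 7.98, 7.57 and 7.25 CPM with DMSO and at 12, 12.1 and 10.4 CPM with doxycycline in sh4. In shAMB, FZD5 was at 7.44, 8.50 and 7.65 CPM with DMSO and at 4.21, 3.5 and 3.92 CPM with doxycycline. No treated library overlapped its controls, and the log2 fold changes of 0.60 and -1.02 differed by 1.62 (adjusted p = 5.10e-08). FZD4, known from retinal vessel growth, rose by 0.36 and fell by 0.68 on the log2 scale, where FZD3, needed for axon tracts, rose by 0.54 and fell by 0.17. Of the exon bases of FZD4, 18.9% face exons on the opposite strand. The fall of FZD3 in shAMB was absent on the TPM scale (log2 fold change 0.0045) and lost without DMSO replicate 2 or doxycycline replicate 2 or 3 (-0.16 to -0.13, adjusted p = 0.0976 to 0.159).

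FZD6 rose in sh4 (log2 fold change 0.82, adjusted p = 3.33e-06) and was not called in shAMB. FZD7 fell in shAMB (log2 fold change -0.73, adjusted p = 0.000212) and rose in xenografts, at 9.50 to 16.4 CPM against 6.15 to 7.70 CPM in controls (log2 fold change 0.90, adjusted p = 0.00381). FZD5 in control xenografts was at 89.2, 60.9, 39.4 and 38.3 CPM, and in libraries labelled KO at 43.8, 10.9, 12.9 and 19.4 CPM. KO replicate 1 overlapped the controls, and the call of FZD5 (log2 fold change -1.39, adjusted p = 0.0222) was lost without control replicate 2, KO replicate 2 or KO replicate 3 (-1.36 to -1.17, adjusted p = 0.0527 to 0.0609). FZD1 was at 0.555 to 0.652 CPM in control xenografts and at 0.0961 to 0.334 CPM in libraries labelled KO (log2 fold change -1.32, adjusted p = 0.0137).

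Of the 4 co-receptors, 1 was called in sh4, 3 in shAMB (2 higher, 1 lower) and 1 in xenografts. These shares of 25%, 75% and 25% stood beside 40.9%, 66% and 41.1% of all genes. LRP6 was at 156 to 171 CPM with DMSO and 166 to 199 CPM with doxycycline in sh4, with overlapping groups, and its small rise (log2 fold change 0.21, adjusted p = 0.0356) was lost without sh4 DMSO replicate 1 or 2 or doxycycline replicate 1 or 2 (0.16 to 0.19, adjusted p = 0.116 to 0.158). LRP5 was at 6.70, 4.78 and 5.96 CPM with DMSO and at 10.7, 12.9 and 17.9 CPM with doxycycline in shAMB (log2 fold change 1.25, adjusted p = 0.00973). This call was lost with GC and length trends removed (log2 fold change 0.37, adjusted p = 0.075). In the sh4 line LRP5 spanned 9.67 to 19.9 CPM with DMSO and 6.07 to 20 CPM with doxycycline, so that its replicates spread widely. ROR1, a receptor for WNT5A, fell in shAMB by 0.47 and in xenografts by 0.70 on the log2 scale (adjusted p = 0.000109 and 0.00133), with no overlap in either.

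Among antagonists, 6 of 8 changed in sh4 (5 higher, 1 lower), 8 of 8 in shAMB (5 higher, 3 lower) and 6 of 9 in xenografts (4 higher, 2 lower), where 40.9%, 66% and 41.1% of all genes changed. APCDD1L, a membrane protein related to the Wnt inhibitor APCDD1, had the largest rise of any member in sh4. APCDD1L was at 0.384, 0.570 and 0.269 CPM with DMSO and at 2.55, 2.74 and 3.63 CPM with doxycycline in sh4, and at 0.444, 0.312 and 0.535 and then 3.85, 4.34 and 4.52 CPM in shAMB. In control xenografts APCDD1L was at 4.63, 5.87, 5.5 and 5.82 CPM, and in libraries labelled KO at 22.6, 31.9, 28.7 and 20.8 CPM. Its log2 fold changes were 2.84 ± 0.23, 3.29 ± 0.23 and 2.25 ± 0.16 (adjusted p = 7.82e-08, 6.42e-09 and 7.45e-06), with no overlap anywhere, and those of the hairpin lines differed by -0.46, which was not called (adjusted p = 0.245).

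DKK3, a divergent member of its family, rose in all of these comparisons too. DKK3 was at 9.90, 10.8 and 10.1 CPM with DMSO and at 23.9, 25.1 and 23.0 CPM with doxycycline in sh4, and at 12.6, 12 and 12.7 and then 16.9, 16.3 and 15.3 CPM in shAMB. The log2 fold change of DKK3 was 1.23 in sh4, 0.38 in shAMB and 0.71 in xenografts (adjusted p = 3.52e-09, 0.000314 and 0.00371). Exons on the opposite strand face 47.5% of its exon bases.

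DKK1, the inhibitor of LRP5 and LRP6 that was the most abundant member in culture, rose in sh4 and fell in shAMB and xenografts. DKK1 was at 88.6, 106 and 101 CPM with DMSO and at 235, 222 and 201 CPM with doxycycline in sh4. In shAMB, DKK1 was at 112, 120 and 115 CPM with DMSO and at 61.5, 60.3 and 58.1 CPM with doxycycline. The log2 fold changes of 1.15 ± 0.07 and -0.95 ± 0.07 differed by 2.10 (adjusted p = 1.25e-10). In the EV line DKK1 was at 70.8 to 79.8 CPM with DMSO and 59.2 to 62.5 CPM with doxycycline, groups that did not overlap, though the difference of -0.30 was not called (adjusted p = 0.234). Set against the EV line, the fall of DKK1 in shAMB was -0.64 (adjusted p = 5.75e-05). With DMSO, DKK1 was higher in shAMB than in EV. With doxycycline both lines lay at similar levels, 58.1 to 61.5 CPM in shAMB and 59.2 to 62.5 CPM in EV. DKK1 in xenografts was at 18.8, 19.8, 16.5 and 23.3 CPM in controls and at 7.72, 3.76, 4.33 and 3.75 CPM in libraries labelled KO (log2 fold change -2.0 ± 0.24, adjusted p = 0.000104). Among the 37 members with a promoter entry, only that of DKK1, shown above, held the TCF and LEF letters, and binding was not tested. Exons on the opposite strand face 10.2% of the exon bases of DKK1.

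KREMEN1, the DKK co-receptor, did the reverse of DKK1. KREMEN1 was at 12.2, 11.5 and 10.2 CPM with DMSO and at 3.38, 3.58 and 4.57 CPM with doxycycline in sh4, and at 11.1, 9.31 and 10.5 and then 19.2, 21.3 and 22.5 CPM in shAMB. These log2 fold changes of -1.56 and 1.03 differed by -2.59 (adjusted p = 3.18e-09). KREMEN1 was also higher in xenografts labelled KO, at 11.9 to 19.1 CPM against 7.30 to 11 CPM in controls (log2 fold change 0.77, adjusted p = 0.0054). SFRP1, a secreted ligand-binding protein, was at 82.5 to 89.9 and then 108 to 118 CPM in sh4, at 93.3 to 98.8 and then 67.9 to 72.3 CPM in shAMB, and at 57.0 to 61.4 CPM in control xenografts against 26.4 to 32.7 CPM in libraries labelled KO. Its log2 fold changes were 0.39, -0.45 and -1.0 (adjusted p = 6.46e-06, 5.89e-07 and 2.35e-05). APCDD1 rose by 0.72 in sh4 and fell by 0.68 in shAMB on the log2 scale.

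NOTUM, the enzyme that inactivates Wnt proteins, was at 0.123, 0.182 and 0.187 CPM with DMSO and at 1.14, 1.40 and 1.41 CPM with doxycycline in shAMB (log2 fold change 2.99 ± 0.53, adjusted p = 0.000144). In sh4 NOTUM was at 0.245 to 0.669 CPM with DMSO and 0.236 to 0.834 CPM with doxycycline, with full overlap. In xenografts NOTUM was at 0.271 to 0.448 CPM in controls and 0.519 to 1.32 CPM in libraries labelled KO (log2 fold change 1.43, adjusted p = 0.00849).

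**Figure D3:**
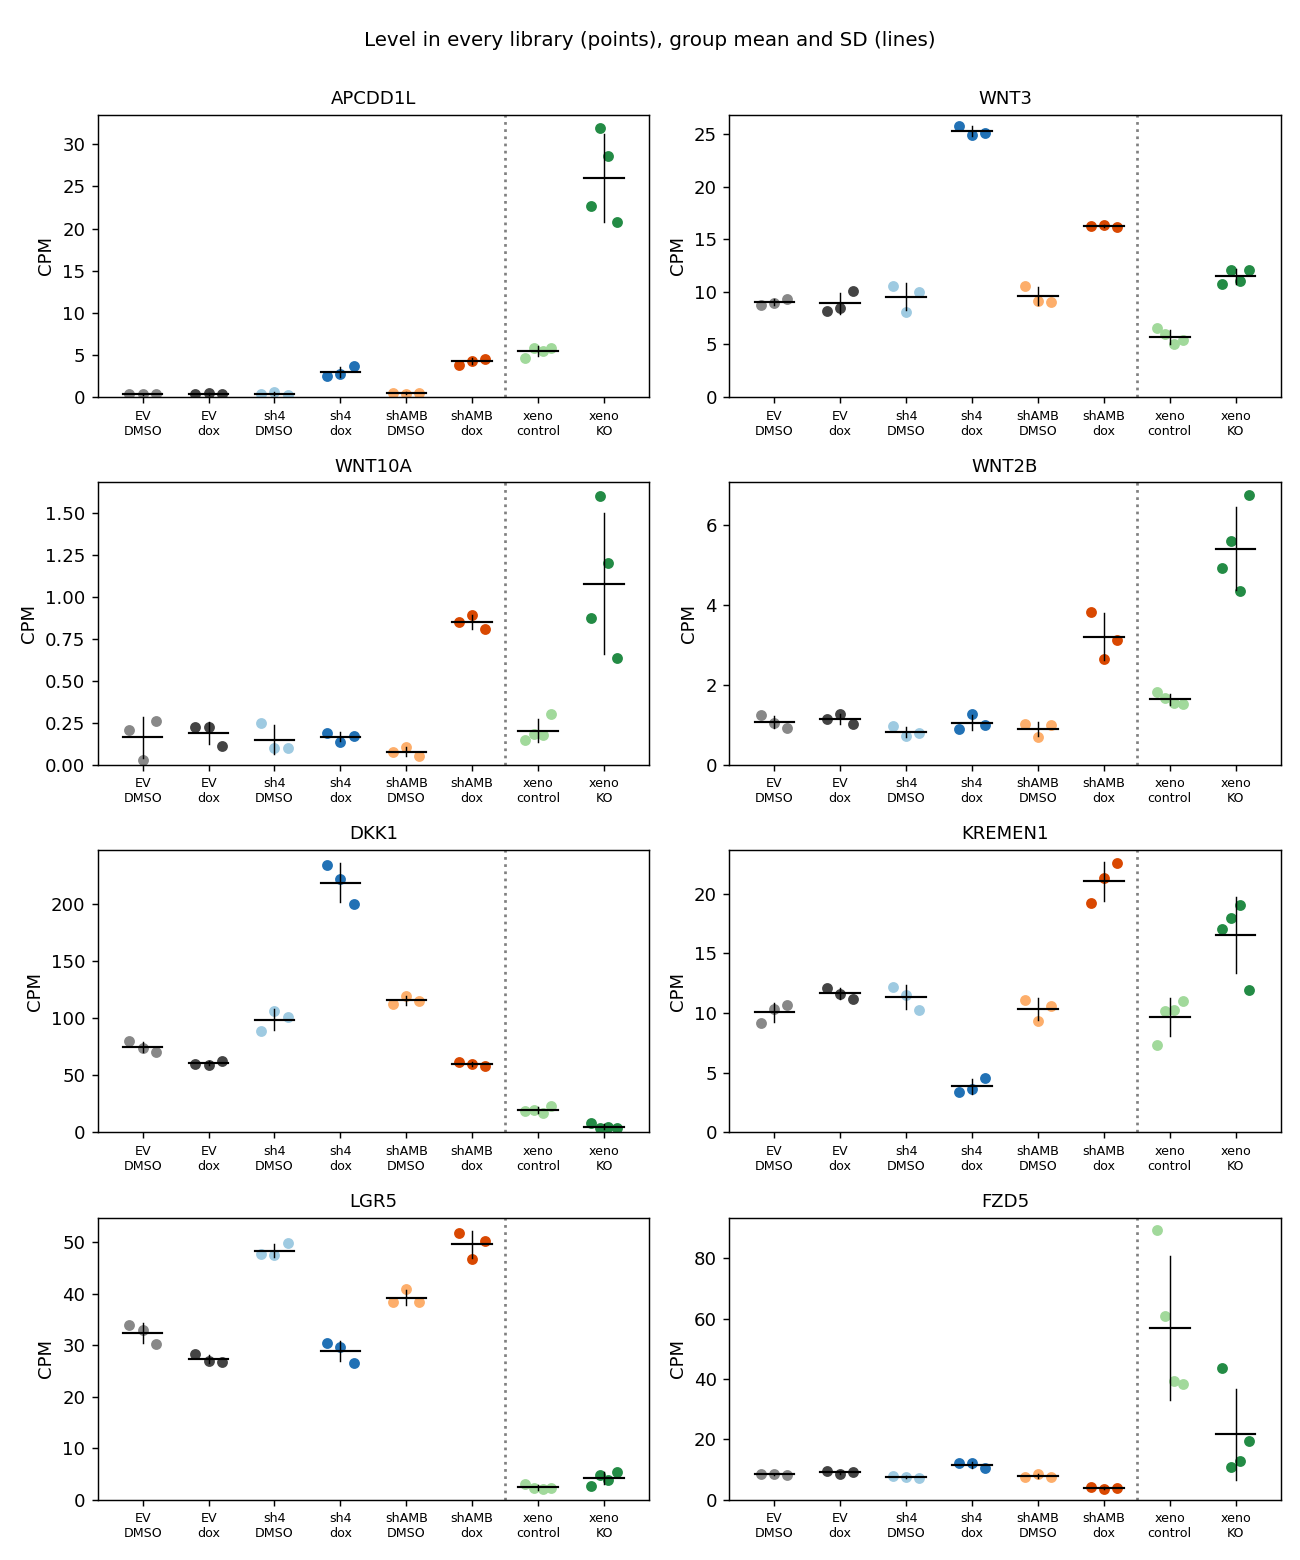
CPM of 8 members in every library (points) of the 8 groups, with group means and SD as lines and each axis starting at 0. The dotted line parts culture from xenografts, which were normalized separately. DKK1 reaches 201 to 235 CPM in sh4 with doxycycline and 58.1 to 61.5 CPM in shAMB with doxycycline, whereas APCDD1L and WNT3 are higher with doxycycline in both.

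LEF1, the nuclear partner of beta-catenin, rose in sh4 and fell in shAMB. LEF1 was at 5.92, 5.86 and 5.14 CPM with DMSO and at 9.12, 9.75 and 8.44 CPM with doxycycline in sh4, and at 4.24, 4.05 and 4.63 and then 2.84, 3.55 and 2.38 CPM in shAMB (log2 fold change 0.69 and -0.55, adjusted p = 0.00086 and 0.00369). In xenografts LEF1 was below 1 CPM, and its call (log2 fold change -0.76, adjusted p = 0.0471) was lost whichever single library was left out (-0.87 to -0.63, adjusted p = 0.0505 to 0.102) and with the replicate block (-0.76, adjusted p = 0.107). TCF7 fell in shAMB from 15.8 to 18.8 CPM with DMSO to 9.65 to 10.2 CPM with doxycycline (log2 fold change -0.79, adjusted p = 1.04e-07). AXIN2, a general target of beta-catenin signalling, was not called anywhere. Its log2 fold changes were 0.17 in sh4 (95% interval -0.03 to 0.37), -0.13 in shAMB (-0.33 to 0.07) and -0.13 in xenografts (-0.40 to 0.13). Of the exon bases of AXIN2, 25.3% are shared with another gene on the same strand.

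The hairpin lines were then compared directly. Both had been called higher for 4 members, APCDD1L, DKK3, WNT3 and WNT5B, and these 4 were also higher in xenografts labelled KO. The 4 are 11.1% of the members tested, near the 8.75% of all genes that were called higher in both lines. Opposite calls were made for 10 of 36 members, namely APCDD1, DKK1, FZD3, FZD4, FZD5, KREMEN1, LEF1, LGR5, SFRP1 and WNT5A. That share of 27.8% stood beside 12.3% of all genes, and no member was lower in both, against 7.11% of all genes. Set against the EV line, the shAMB falls of FZD3 and WNT5A were not called. The LEF1 effects were called against EV, but lost their call under 8 of 19 alternatives in sh4 and 4 of 19 in shAMB. The difference between the doxycycline effects of the 2 lines was called for 28 of 36 members, 17 with the larger value in sh4, against 60.9% of all genes. Against the EV line, the sh4 effect differed for 15 members (32.6% of all genes) and the shAMB effect for 19 (45.5% of all genes). Of 33 members tested in both tables, 11 (33.3%) were higher and 5 (15.2%) lower in both shAMB and xenografts labelled KO, against 17.2% and 16.7% of all genes. These counts include LGR5, LEF1 and FZD5, whose xenograft calls were lost with single libraries left out. The tumors may carry the shAMB hairpin, so shAMB and xenografts cannot be taken as independent hairpins. FZD7 and WNT5A were called in opposite directions in shAMB and xenografts, 6.06% of the members against 0.668% of all genes. The xenograft call of WNT5A was also lost with single libraries left out.

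**Figure D4:**
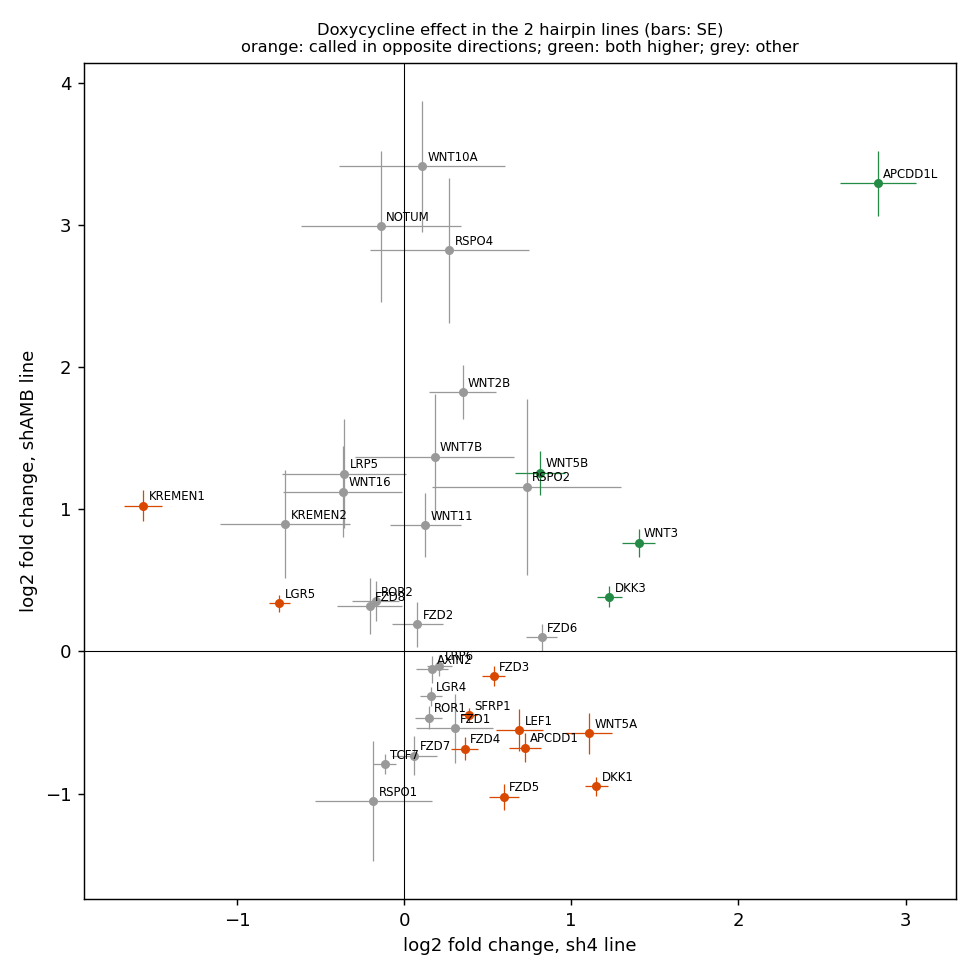
Log2 fold change with doxycycline in the sh4 line (horizontal) and in the shAMB line (vertical) for the 36 members tested, with SE bars. Orange marks the 10 members called in opposite directions, green the 4 called higher in both and grey all others. DKK1 lies at 1.15 and -0.95, KREMEN1 at -1.56 and 1.03 and APCDD1L at 2.84 and 3.29.

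The lines also differed before induction. With DMSO, DKK1, LEF1 and LGR5 were higher in sh4 than in EV (log2 fold change 0.40, 0.67 and 0.58), 3 of 36 members against 1.12% of all genes. DKK1, LGR5 and SFRP1 were higher in shAMB than in EV (0.63, 0.28 and 0.32), 3 of 36 against 1.52% of all genes. The call of LEF1 in sh4 was lost when any one of EV replicates 1, 2 and 3 or sh4 replicates 1 and 2 was left out (0.62 to 0.69, adjusted p = 0.0559 to 0.168). That of LGR5 in shAMB was lost when any one of EV replicates 2 and 3 or shAMB replicates 1, 2 and 3 was left out (0.23 to 0.29, adjusted p = 0.0689 to 0.182). Where the EV line is the reference, such a starting difference stands beside the response of these genes. Fitted with only the groups compared, or without sh4 DMSO replicate 2, the first count was 1.

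Further pathway genes were taken from a list of 60, of which 56 were tested in culture and 57 in xenografts. In sh4 31 changed (18 higher, 13 lower), in shAMB 44 (30 higher, 14 lower), in EV 0 and in xenografts 24 (14 higher, 10 lower). These shares of 55.4% in sh4, 78.6% in shAMB and 42.1% in xenografts stand beside 40.9%, 66% and 41.1% of all genes, so that the xenograft share was that of the background. DESeq2 called 1 of them in EV. CTNNB1, which encodes beta-catenin, averaged 594 CPM with DMSO and 314 CPM with doxycycline in sh4 (log2 fold change -0.92 ± 0.04, adjusted p = 6.40e-11) and fell by 0.23 in shAMB on the log2 scale. ZNRF3, the ubiquitin ligase that removes Frizzleds, fell in sh4 (log2 fold change -0.66, adjusted p = 3.92e-08) and was not called in shAMB (0.06). DVL2, a Dishevelled adaptor, fell by 0.83 in sh4 and rose by 0.95 in shAMB on the log2 scale.

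DACT3, an inhibitor that acts on Dishevelled, rose in all of these comparisons, with log2 fold changes of 0.58 in sh4, 1.5 in shAMB and 1.70 in xenografts (adjusted p = 8.65e-06, 8.99e-11 and 2.16e-05). SOSTDC1, a secreted inhibitor of LRP6, fell by 0.99, 1.97 and 1.78, but it was also lower with doxycycline in EV (log2 fold change -0.91, adjusted p = 0.0526). CELSR1, of the planar polarity branch, rose in shAMB and in xenografts (log2 fold change 1.2 and 2.34) and was not called in sh4 (0.41). VANGL1, of the same branch, rose in sh4 (0.79) and fell in shAMB (-0.98) and in xenografts (-1.25).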

How the data were processed

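RNA from 18 cultures and 8 xenografts had been sequenced. The labels name a kit for stranded total RNA but give the molecule as polyA RNA. The submitters' processing notes name STAR, SAMtools, RSEM and the build hg38, without versions. The authors deposited RSEM expected counts and TPM (abundance scaled for length and library) per gene. In the culture tables, Neg was taken to mean DMSO and Pos doxycycline, on the wording only, and all culture directions rest on this. Expected counts were rounded, scaled by TMM and tested with edgeR 4.0.16 (quasi-likelihood F test, filterByExpr, Benjamini-Hochberg adjustment over all genes, threshold 0.05), in 1 fit over the culture libraries and another over the xenografts. Errors are SD over libraries or SE of the fit, and reads carry no molecular identifiers, so counts cover counting error only. The members and lists were chosen with earlier results of these data known. Members described by library had a call of at least 2-fold in 1 comparison and a mean of at least 0.5 CPM, the 16 largest first. LEF1, LGR5, RSPO1 and WNT5A fall outside this rule and were given by library after their values were seen. Further members named were called, went in opposite directions or were high in their role. Alternatives were RLE factors, DESeq2 1.42.0, limma 3.58.1 on the log2 of deposited TPM plus 0.1 (culture only), no filter, a replicate block, GC content and length offsets, only the groups compared, and each library left out. Replicates were not identical in any pair. The code was tested on simulated data. The sums of 1 marker list are not reported here.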

Additional observations from a re-analysis of the deposited data

Results flagged for a closer look

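In xenograft groups of 4, 48 were examined for a library far from the others, and chance flags about 1 in 20. NOTUM in control replicate 3 stood out at 0.448 CPM, RSPO4 in control replicate 4 at 0.268 CPM, DKK1 in KO replicate 1 at 7.72 CPM and LGR5 in control replicate 1 at 3.14 CPM.

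The doxycycline effect differed between the sh4 and shAMB lines by test for 28 members, between sh4 and EV for 15 and between shAMB and EV for 19. Given as the sh4 minus shAMB difference on the log2 scale, the value was -3.31 for WNT10A, -3.13 for NOTUM, -2.59 for KREMEN1, -2.55 for RSPO4, -1.61 for LRP5, -1.49 for WNT16, -1.47 for WNT2B, -1.08 for LGR5 and -0.76 for WNT11. It was 2.10 for DKK1, 1.68 for WNT5A, 1.62 for FZD5, 1.40 for APCDD1, 1.24 for LEF1, 1.05 for FZD4, 0.84 for FZD1, DKK3 and SFRP1, 0.71 for FZD3 and 0.64 for WNT3. The differences of FZD1, WNT11, WNT16 and LRP5 lost their call under at least 1 alternative.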

How the results depend on the processing

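Of 133 member results called, 104 kept their direction and call under every alternative run. The count of members changed stayed within 15 to 19 in sh4, 26 to 30 in shAMB and 19 to 24 in xenografts over the alternative settings, and within 15 to 19, 24 to 28 and 16 to 22 with 1 library left out. With GC and length trends removed, the counts became 2 in EV and 8 for shAMB against EV with DMSO. For sh4 against EV with DMSO the count was 1 in a fit of only the groups compared, and 1 to 3 with 1 library left out. Other pathway genes in EV numbered 1 with RLE factors, GC and length trends removed, DESeq2 or limma on TPM. RUNX1T1 in sh4 was -0.25 with GC and length trends removed (called), 0.062 on TPM and -0.16 to -0.076 with 1 library left out (called, at -0.16, without doxycycline replicate 2 only). RUNX1T1 in shAMB was -0.019 with RLE factors, -0.020 with DESeq2, -0.024 in a fit of only the groups compared and 0.24 on TPM (called). RUNX1T1 in xenografts was -0.35 with GC and length trends removed (called). FZD3 in shAMB was 0.0045 on TPM, and KREMEN2 and ROR2 in shAMB turned to -0.21 and -0.074 with GC and length trends removed; the cause was not tested. On TPM the all-gene median shifted to 0.16 in sh4 and 0.26 in shAMB, and the share of higher calls to 80.4% and 72.9%, against 56% and 56.9%. Replicate numbers did not pair the samples, with correlations of same-numbered libraries from -0.92 to 0.46. With a replicate block, 15 members changed for sh4, 29 for shAMB, 0 for EV and 19 for xenografts.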
